A study of Mus musculus with 10 samples.

Results

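Brown adipocyte identity transcription factors are the nuclear regulators that commit a precursor cell to brown fat and keep its heat-producing genes active. The set described here holds 10 genes, taken by their symbols from a count table of 20295 genes: Prdm16, Ebf1, Ebf2, Ebf3, Zic1, Lhx8, Zfp516, Ehmt1, Nfia and Tbx15. RNA was poly-A selected from whole interscapular brown adipose tissue, the fat depot between the shoulder blades, of 10 single-housed male C57BL/6JBomTac mice, 8 weeks old, with 1 library per mouse. Cold mice (5) spent 3 days at 4 °C, while control mice (5) stayed at 22 °C, where all had been housed until then. No genetic change or drug is named for either group. The control temperature is below the thermoneutral range of mice, so the comparison is between mild and strong cold.

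In textbook accounts, PRDM16 is a large zinc-finger protein that steers precursors shared with skeletal muscle towards brown fat, working with C/EBP-beta, PPAR-gamma, corepressors and the histone methyltransferase EHMT1, which is an enzyme rather than a DNA-binding factor. EBF2 marks brown precursors and brings PPAR-gamma to brown-selective enhancers, and NFIA helps open the chromatin of such enhancers. ZFP516 binds the Ucp1 promoter and is known as a cold-responsive activator of it. ZIC1, LHX8 and TBX15 are developmental patterning factors. Transcripts of Zic1 and Lhx8 are used to tell interscapular brown fat from other fat depots, while Tbx15 is also expressed in some white depots.

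None of the 10 regulators passed the test for a difference between cold and control mice. In the same libraries the direct effector Ucp1, the uncoupling protein, was at 18490 ± 851 CPM in cold and 9103 ± 799 CPM in control mice (SD, n = 5 each). CPM is a gene's read count scaled to a common library size by TMM. In edgeR's quasi-likelihood fit of 11229 genes, Benjamini-Hochberg adjusted p-values of the regulators lay between 0.0521 for Tbx15 and 0.943 for Ebf3, and a gene was called at an adjusted p under 0.05. The count of regulators called was 0 of 10 in either direction, where 19.3% of all genes tested were called, 10.2% higher and 9.16% lower in cold mice. DESeq2 and limma-voom also called 0 of 10, where they called 21.8% and 19.0% of genes. So did edgeR with RLE scaling (19.3% of genes called), upper quartile scaling (19.5%), no scaling (19.1%), library sizes without the 20 most abundant genes (19.6%), no filter (13.2%), a CPM filter (18.3%) and a replicate block (15.9%). Leaving out cold replicates 1 to 5 in turn called 15.2, 14.4, 13.8, 13.9 and 21.4% of genes, and leaving out control replicates 1 to 5 in turn 20.3, 21.4, 17.2, 15.3 and 15.6%. Of the regulators these 10 fits called 2 without control replicate 1, 1 without cold replicate 5 and 0 in the others. Omitting control replicate 2 and cold replicate 5 together called 1 regulator and 25.3% of genes. At an unadjusted p under 0.05 edgeR had 2 of 10, Tbx15 and Zic1, where 34.1% of genes tested reached that level. For 0 of the 10 did the cold and control libraries not overlap, where this held for 14.0% of genes tested, 7.39% with cold above control and 6.58% with cold below it. The median log2 fold change of cold over control was 0.04 over the regulators and -0.02 over all genes tested.

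**Figure D1:**
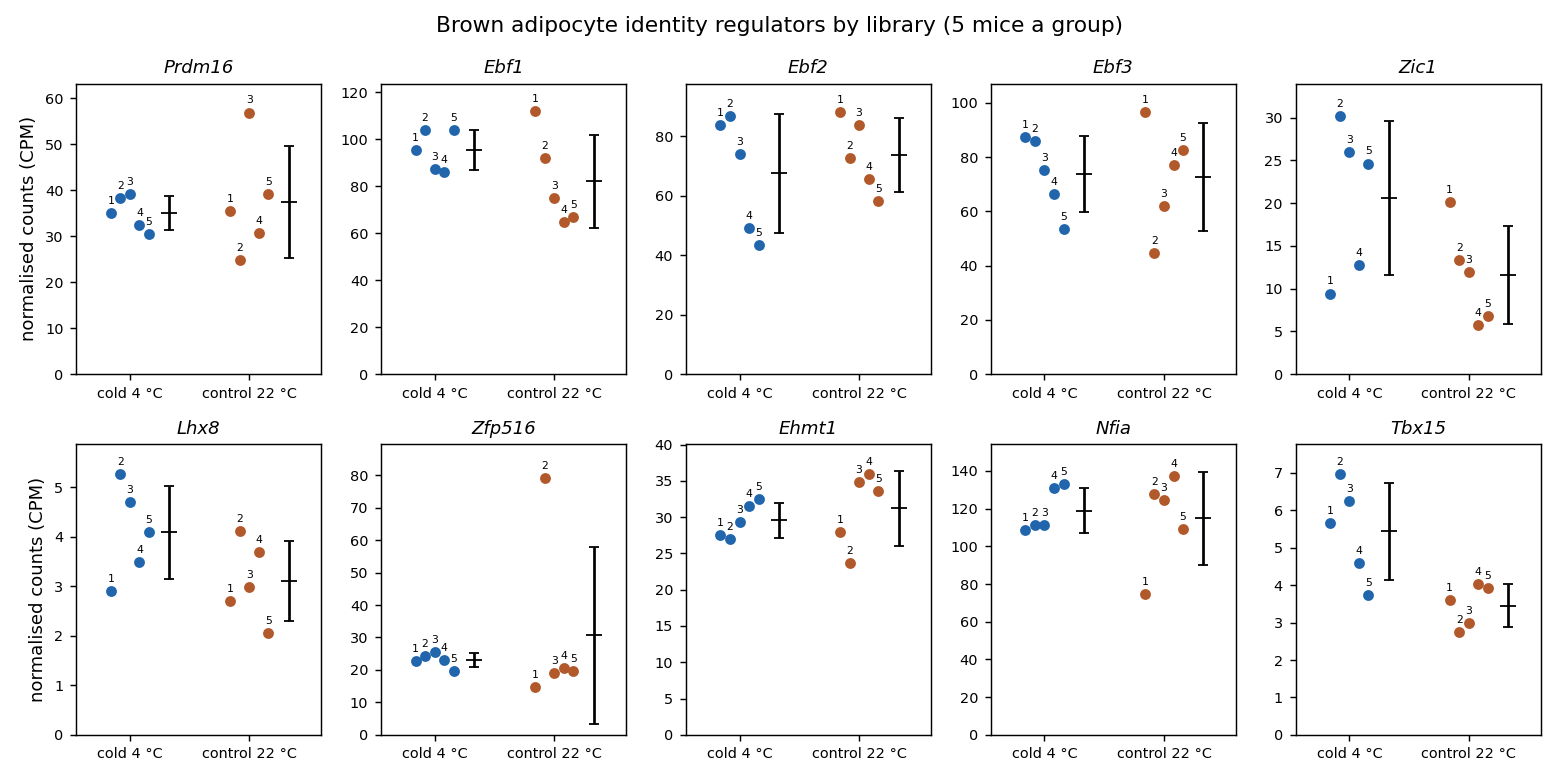
Normalised counts (CPM, linear axes from 0) of the 10 regulators in each library. Each point is 1 mouse with its replicate number, cold mice on the left of each panel and control mice on the right, and the bar beside each group is the mean ± SD (n = 5). The groups overlap in all 10 panels, and control replicate 2 stands alone at 79.1 CPM of Zfp516.

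Library totals ran from 5676963 to 6923932 counts in cold and from 4446163 to 5776905 in control mice. The brown fat marker Ucp1 lay at 17150 to 19460 CPM in cold and 8061 to 9934 CPM in control mice. Of 10 adipocyte markers tested, Ucp1 among them, 1 rose (Ucp1) and 1 fell, with a median log2 fold change of 0.03. The 1 that fell was Adipoq (log2 fold change -0.72, adjusted p = 0.00519 in edgeR's test). Over all genes tested 19.3% were called. Of 17 genes in the table listed as white adipocyte markers, some of them regulators, Hoxc9, Hoxc10 and Tcf21 had 0 counts in all 10 libraries. The other 14 were detected in each, among them Hoxc8 (1 to 114 counts), Lep (15 to 195), Retn (79 to 648) and Igfbp3 (74 to 445). Control replicate 2 and cold replicate 5 stood apart from their groups on the second principal component, at -36.5 and -23.5. Skeletal muscle markers, 11 genes with summed levels of 7.28 to 330 CPM in cold and 5.96 to 80.8 CPM in control mice, were highest in cold replicates 2 and 3, at 330 and 231 CPM. Markers of preadipocytes and fibroblasts (10 genes) summed to 357 to 979 CPM in cold and 443 to 627 CPM in control mice, with cold replicate 5 lowest. Of the 9 of these tested, 4 rose and 0 fell, where 10.2% of all genes tested rose and 9.16% fell. Endothelial markers (10 genes, all tested) summed to 895 to 1074 CPM in cold and 739 to 1104 CPM in control mice, and 3 of them rose (Emcn, Vwf and Kdr) and 0 fell. Markers of B cells (8 genes) and T cells (7 genes) summed to at most 5.43 CPM in any library. In whole tissue a difference in the number of cells of a type and a difference in RNA per cell cannot be told apart.

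The regulators differ widely in abundance. Compared per length, as RPKM (CPM divided by the kilobases over which reads were counted), Ebf1 was the highest at 18.3 ± 1.66 in cold and 15.8 ± 3.82 in control mice. Ebf3 followed at 14.8 ± 2.83 in cold and 14.5 ± 3.98 in control mice. Nfia was at 12.8 ± 1.28 in cold and 12.4 ± 2.66 in control mice, and Ebf2 at 12.2 ± 3.63 in cold and 13.3 ± 2.25 in control mice. These 4 genes lay above the median RPKM of all genes tested, which was 8.54 in cold and 8.62 in control mice, and neighbours in this order overlapped in both groups, though in cold mice Ebf1 (lowest library 16.6) lay above Nfia (highest 14.3) and Ebf2 (highest 15.7). Below that median, Zic1 was at 6.16 ± 2.69 in cold and 3.45 ± 1.72 in control mice, and Ehmt1 at 5.96 ± 0.481 in cold and 6.29 ± 1.05 in control mice. Prdm16 was lower at 4.16 ± 0.441 in cold and 4.43 ± 1.44 in control mice (SD, n = 5 each, as throughout). In cold mice the range of Prdm16 overlapped neither that of Ehmt1 above it nor that of Zfp516 below it. In control mice it overlapped both. Within single control libraries Ehmt1 was above Prdm16 in 5 of 5, and Prdm16 above Zfp516 in 4 of 5. Zfp516 was at 2.98 ± 0.286 in cold and 3.97 ± 3.52 in control mice. The least abundant were Lhx8, at 2.07 ± 0.474 in cold and 1.57 ± 0.410 in control mice, and Tbx15, at 1.53 ± 0.363 in cold and 0.969 ± 0.160 in control mice. Levels of Lhx8 and Tbx15 overlapped in both groups. In cold mice 30.7% of genes tested had a lower RPKM than Prdm16, and in control mice 32.0% did. For Tbx15 these shares were 11% in cold and 6.47% in control mice.

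**Figure D2:**
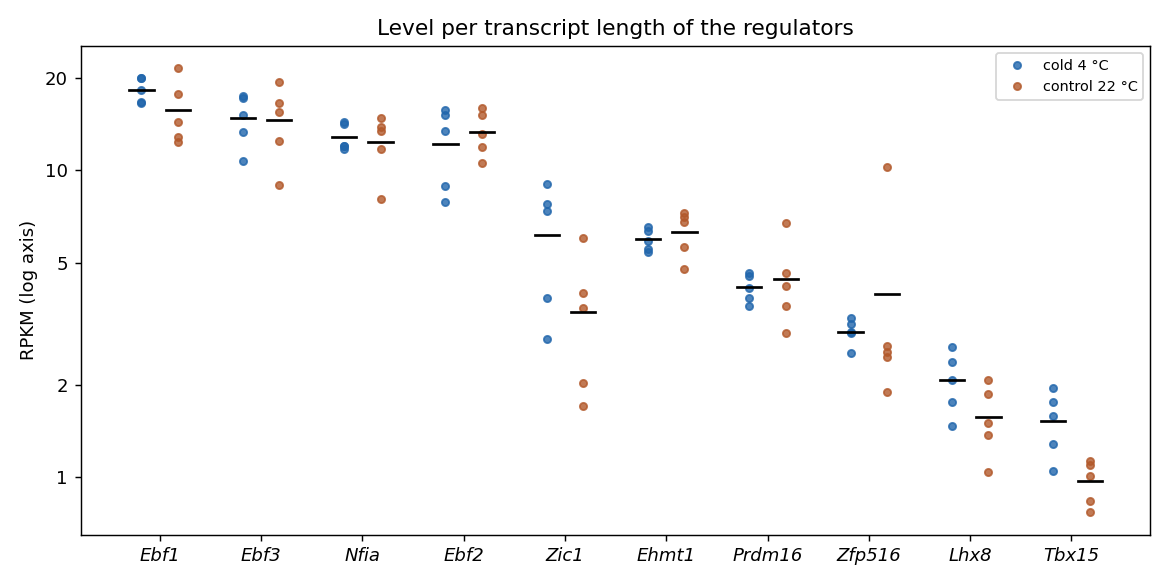
Level per transcript length (RPKM, log axis) of the 10 regulators, ordered by their mean in cold mice. Each point is 1 mouse (5 cold, 5 control) and each short line a group mean. Ebf1, Ebf3, Nfia and Ebf2 form the upper group at means of 12.2 to 18.3, and Lhx8 and Tbx15 the lowest.

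Most of the regulators are long genes. Nfia spans 537 kb, Ebf1 390 kb and Prdm16 321 kb on the mm9 build, longer than 99.5%, 98.9% and 98.3% of the genes tested, whose median span was 22.6 kb. Zic1, at 5.46 kb, is short, and Lhx8, at 24.3 kb, is near that median. Reads were counted over 9274 bases of Nfia but over 1977 bases of Lhx8. At the depth of these libraries Lhx8 had 10 to 34 counts and Tbx15 13 to 45 counts per library. Counting error alone then gives a coefficient of variation of about 19.8% in cold and 25.3% in control libraries for Lhx8, where the observed values were 22.9% in cold and 26.0% in control libraries. For Tbx15 counting error gives about 17.1% in cold and 24.1% in control libraries. The observed values were 23.8% in cold and 16.5% in control libraries, so its controls varied less than counting error alone gives.

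Promoter sequences were matched by symbol for 7 of the 10 regulators (not Ebf2 or Tbx15, and Zfp516 was not looked up), giving 8 windows of 300 bases from 250 before to 50 after an annotated start (RefSeq, build GRCm38.p6, not the build of the counts). Of the 8 windows 4 are shown, which do not include the most CpG-poor. Prdm16 is the central regulator of the set, and Ebf3 is CpG-dense with cAMP element cores. Zic1 and Lhx8 had the 2 largest log2 fold changes among those with a window. Capitals mark matches on either strand to the motifs searched: the EBF palindrome (TCCC and GGGA 2 bases apart), the cAMP response element (TGACG followed by TCA) and its core TGACG, the E-box CANNTG, the GC box GGGCGG, the TATA box TATAAA, the direct repeat bound by PPAR-gamma with RXR (AGGTCA repeated after 1 base) and the NFI palindrome (TTGGC and GCCAA 5 bases apart). The core lies within the full cAMP element.
Prdm16 promoter, GRCm38.p6 chr4:154636824-154637123, minus strand: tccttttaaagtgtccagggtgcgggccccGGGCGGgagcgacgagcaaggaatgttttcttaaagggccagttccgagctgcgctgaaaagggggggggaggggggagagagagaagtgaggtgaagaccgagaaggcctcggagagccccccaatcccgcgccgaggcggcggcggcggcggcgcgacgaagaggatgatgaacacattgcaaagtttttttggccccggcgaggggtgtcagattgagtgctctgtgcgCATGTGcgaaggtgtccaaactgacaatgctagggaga
Ebf3 promoter, GRCm38.p6 chr7:137314396-137314695, minus strand: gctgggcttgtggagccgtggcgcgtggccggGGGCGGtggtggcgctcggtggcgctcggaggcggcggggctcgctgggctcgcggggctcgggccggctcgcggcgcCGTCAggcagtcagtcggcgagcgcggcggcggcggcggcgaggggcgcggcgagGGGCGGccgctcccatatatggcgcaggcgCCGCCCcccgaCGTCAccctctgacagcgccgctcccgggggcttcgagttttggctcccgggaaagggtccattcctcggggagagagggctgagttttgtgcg
Zic1 promoter, GRCm38.p6 chr9:91365719-91366018, minus strand: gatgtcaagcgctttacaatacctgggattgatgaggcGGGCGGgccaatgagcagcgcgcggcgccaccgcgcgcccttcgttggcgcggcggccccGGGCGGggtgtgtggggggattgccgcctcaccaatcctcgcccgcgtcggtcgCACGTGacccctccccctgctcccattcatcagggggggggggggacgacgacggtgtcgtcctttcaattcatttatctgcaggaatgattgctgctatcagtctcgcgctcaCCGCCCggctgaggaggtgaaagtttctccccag
Lhx8 promoter, GRCm38.p6 chr3:154330511-154330810, minus strand: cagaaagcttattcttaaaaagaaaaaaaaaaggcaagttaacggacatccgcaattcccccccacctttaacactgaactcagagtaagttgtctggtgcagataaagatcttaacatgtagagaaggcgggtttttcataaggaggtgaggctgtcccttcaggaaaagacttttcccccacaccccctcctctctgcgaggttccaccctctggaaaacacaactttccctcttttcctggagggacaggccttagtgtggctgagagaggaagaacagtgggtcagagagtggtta
The EBF palindrome was in 0 of the 8 windows and in 0.904% of 32851 mouse promoter windows. The cAMP core was in 2 of the 8, and in 20.8% of all windows. In Ebf3 it starts at -140 and -44 relative to the annotated start. The GC box was in 4 of the 8 windows, and in 35.7% of all. Of the 8 windows, 6 had more CpG than the median promoter, whose observed-over-expected ratio was 0.384. Zic1 was at 0.969 and Lhx8 at 0.241. These are matches of letters and say nothing of factor binding.

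Prdm16 (chromosome 4, 153690234 to 154010982, mm9) was at 35.0, 38.3, 39.1, 32.4 and 30.4 CPM in cold replicates 1 to 5, against 35.4, 24.9, 56.85, 30.6 and 39.1 CPM in control replicates 1 to 5. The 5 cold values lay inside the span of the controls, whose lowest and highest were replicates 2 and 3. The log2 fold change was -0.09 (SE 0.18, adjusted p = 0.772 in edgeR's quasi-likelihood test), with a 95% interval of 0.719 to 1.24 for the fold of cold over control. Without control replicate 3, the highest, it was 0.11. The coefficient of variation was 10.6% in cold and 32.5% in control mice, where the median gene tested had 12.6% in cold and 16.7% in control mice.

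Ehmt1 (chromosome 2, 24646289 to 24775129, mm9), which encodes a histone H3 lysine methyltransferase of the PRDM16 complex, was at 27.6, 27.0, 29.3, 31.5 and 32.5 CPM in cold replicates 1 to 5, against 28.0, 23.7, 34.85, 35.97 and 33.6 CPM in control replicates 1 to 5. Both the lowest and the highest value were in control mice. Its interval was the narrowest of the set: the log2 fold change was -0.08 (SE 0.12, adjusted p = 0.685), with a 95% interval of 0.788 to 1.14 for the fold. The paralog Ehmt2, which pairs with EHMT1 in one enzyme complex, was at 42.0 ± 4.00 CPM in cold and 49.1 ± 6.55 CPM in control mice (log2 fold change -0.23, adjusted p = 0.154). Per length, Ehmt1 made up 35.4 ± 2.50% of the summed RPKM of the pair in cold and 33 ± 2.45% in control mice.

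Of the early B cell factors, Ebf1, Ebf2 and Ebf3 were well expressed and did not pass the test. Ebf1 (chromosome 11, 44431602 to 44821598, mm9), which promotes fat cell formation and B cell development, was at 95.3, 103.9, 87.2, 86.2 and 104.1 CPM in cold replicates 1 to 5, against 112, 92.0, 75.0, 64.5 and 66.9 CPM in control replicates 1 to 5. Control replicate 1 was above every cold library, and control replicates 3, 4 and 5 were below every cold library. On the log2 scale cold over control was 0.22 (SE 0.14, adjusted p = 0.304), with a fold interval of 0.941 to 1.44. Without control replicate 1 it was 0.35 with an adjusted p of 0.0496 in edgeR's quasi-likelihood test. The lowest estimate over single omissions was 0.14, without control replicate 4 (adjusted p = 0.538 in the same test).

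Ebf2 (chromosome 14, 67852129 to 68049789, mm9), the brown-selective member, was at 84.0, 87.0, 74.1, 49.0 and 43.5 CPM in cold replicates 1 to 5, against 88.3, 72.6, 83.9, 65.7 and 58.3 CPM in control replicates 1 to 5. Cold replicates 4 and 5 were below all controls, and the other 3 cold libraries lay among them. Its log2 fold change was -0.12 (SE 0.19, adjusted p = 0.685, fold interval 0.691 to 1.22). Its gene span overlaps Gm6878 on the opposite strand by 9824 bases, which was at 0 CPM in cold and 0.0843 CPM in control mice.

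Ebf3 (chromosome 7, 144385354 to 144506128, mm9), whose promoter is printed above, was at 87.4, 85.9, 75.4, 66.45 and 53.6 CPM in cold replicates 1 to 5, against 96.6, 44.8, 62.1, 77.1 and 82.6 CPM in control replicates 1 to 5. Controls held both the lowest and the highest value. The log2 fold change was 0.02 (SE 0.19, adjusted p = 0.943, fold interval 0.768 to 1.34), and its sign turned when any of 4 single libraries was omitted.

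Taken per length, the balance among the 3 factors varied between mice. Ebf1 made up 41.0 ± 6.62% of the summed RPKM of the family in cold and 35.9 ± 5.28% in control mice. For Ebf2 the share was 26.4 ± 4.48% in cold and 30.6 ± 3.87% in control mice, and for Ebf3 it was 32.4 ± 2.67% in cold and 33.2 ± 7.52% in control mice. Ebf4 was near absent, with 0 to 4 counts in each library. The family total was 45.4 ± 6.71 RPKM in cold and 43.8 ± 7.41 RPKM in control mice. The ratio of Ebf2 to Ebf1 was lowest in cold replicates 4 and 5, at 0.535 and 0.393, where the other 3 cold libraries were at 0.788 to 0.829 and the controls at 0.741 to 1.05. Cold replicate 5 also had the lowest preadipocyte and fibroblast marker sum, 357 CPM, while cold replicate 4 had the highest, 979 CPM.

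**Figure D3:**
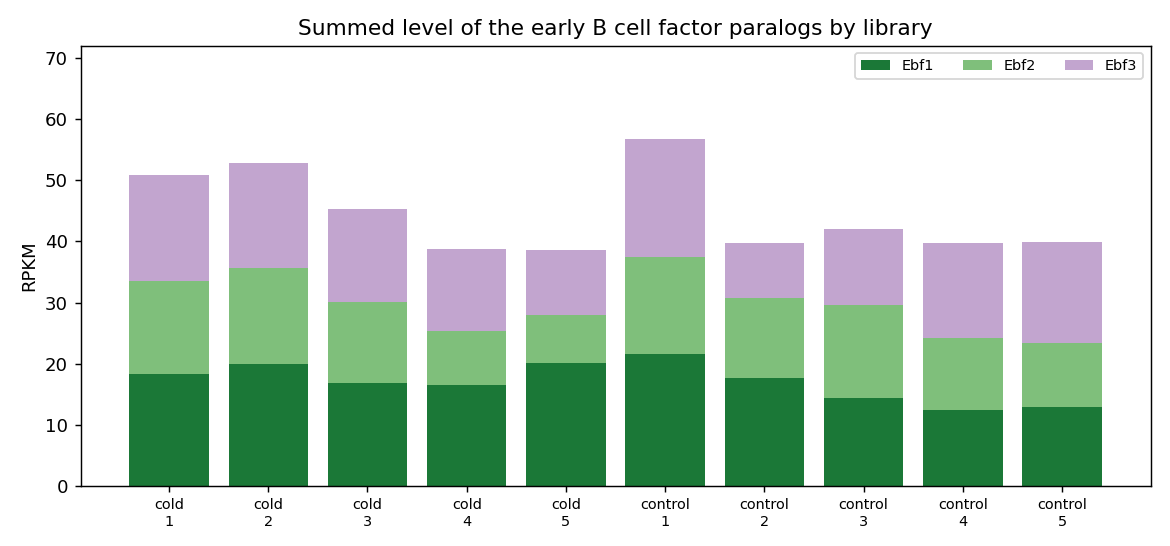
Summed level per length (RPKM, linear axis from 0) of Ebf1, Ebf2 and Ebf3 in each library, cold replicates 1 to 5 on the left and control replicates 1 to 5 on the right. Bars are stacked by gene. Cold replicate 5 has 51.9% of its family total from Ebf1, and control replicate 1 has the highest total, 57.0 RPKM with Ebf4 included.

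Nfia (chromosome 4, 97248634 to 97785567, mm9), the nuclear factor I member linked to brown enhancers, was at 108.5, 111.1, 111.5, 130.8 and 132.9 CPM in cold replicates 1 to 5, against 74.7, 128, 124.7, 137.5 and 109 CPM in control replicates 1 to 5. Control replicate 1 was below the other 9 libraries. On the log2 scale cold over control was 0.05 (SE 0.14, adjusted p = 0.834, fold interval 0.839 to 1.28), and -0.07 without that library. The 4 nuclear factor I genes summed to 55.6 ± 1.75 RPKM in cold and 57.4 ± 4.72 RPKM in control mice, more than the EBF total. Of this sum Nfia made up 23.1 ± 2.16% in cold and 21.7 ± 5.13% in control mice. Nfic was at 80.3 ± 12.0 CPM in cold and 107 ± 18.9 CPM in control mice (log2 fold change -0.41, adjusted p = 0.0529), named after its values were seen. Nfib and Nfix had log2 fold changes of 0.06 and 0.13 (adjusted p = 0.643 and 0.481).

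Zfp516 (chromosome 18, 83080271 to 83174706, mm9), the activator of Ucp1, was at 22.8, 24.3, 25.45, 22.9 and 19.6 CPM in cold replicates 1 to 5, against 14.7, 79.1, 19.0, 20.7 and 19.8 CPM in control replicates 1 to 5. One control library was far above all others, and 4 of the 5 cold libraries lay above the other 4 controls. The log2 fold change was -0.42 (SE 0.39, adjusted p = 0.484) with all libraries, over a fold interval of 0.419 to 1.34. Without control replicate 2 it was 0.31 (SE 0.13, adjusted p = 0.0999), so 1 library decided the sign. Without cold replicate 5 as well it was 0.36 (adjusted p = 0.0516). Control replicate 2 was the highest control and cold replicate 5 the lowest cold library for Zfp516, so omitting them raises the estimate. Control replicate 2 was also high in other transcripts, chosen after their values were seen. Dio2, the deiodinase that activates thyroid hormone, was there at 1497 CPM, against 166 to 283 CPM in the other controls. Ppargc1a, a coactivator of mitochondrial genes, was at 991 CPM, against 81.4 to 214 CPM, and Irf4, a partner of PGC-1-alpha in brown fat, at 164 CPM, against 14.0 to 50.9 CPM. Ucp1 in that library was at 9260 CPM, among the other controls.

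Zic1 (chromosome 9, 91255183 to 91260637, mm9), the classical marker of interscapular brown fat, was at 9.43, 30.2, 26.0, 12.8 and 24.6 CPM in cold replicates 1 to 5, against 20.1, 13.3, 11.9, 5.71 and 6.80 CPM in control replicates 1 to 5. Cold replicates 2, 3 and 5 were above all controls, and cold replicate 1 was below 3 of them. Its log2 fold change was the largest of the set, 0.85 (SE 0.36, unadjusted p = 0.0349, adjusted p = 0.117 in edgeR's quasi-likelihood test), with a fold interval of 1.05 to 3.11. Without control replicate 1, the highest control, it was 1.14 with an adjusted p of 0.0428. The lowest estimate over single omissions was 0.67, without control replicate 4 (adjusted p = 0.232 in the same test). Its coefficient of variation, 43.6% in cold and 49.8% in control mice, was well over the counting error of 8.80% in cold and 13.5% in control libraries. The other ZIC genes were scarce, and Zic1 made up 94.2 ± 3.54% of the family RPKM in cold and 88.3 ± 6.45% in control mice.

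Lhx8 (chromosome 3, 153969258 to 153993524, mm9), a LIM-homeobox marker of classical brown fat, was at 2.91, 5.27, 4.69, 3.48 and 4.11 CPM in cold replicates 1 to 5, against 2.71, 4.11, 2.98, 3.70 and 2.06 CPM in control replicates 1 to 5. Cold replicates 2 and 3 were above all controls, and the rest overlapped. Its log2 fold change was 0.39 (SE 0.24, adjusted p = 0.288, fold interval 0.908 to 1.88).

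Tbx15 (chromosome 3, 99057683 to 99158183, mm9), a T-box factor of brown and some white depots that skeletal muscle also expresses, was at 5.655, 6.98, 6.26, 4.59 and 3.73 CPM in cold replicates 1 to 5, against 3.61, 2.74, 2.98, 4.03 and 3.91 CPM in control replicates 1 to 5. Cold replicates 1 to 4 were above all controls and cold replicate 5 lay among them. The log2 fold change was 0.65 (SE 0.22, unadjusted p = 0.0103, adjusted p = 0.0521), with a fold interval of 1.13 to 2.18. Without cold replicate 5 it was 0.75 with an adjusted p of 0.0215 in edgeR's quasi-likelihood test. The lowest estimate over single omissions was 0.55, without cold replicate 2 (adjusted p = 0.132 in the same test). The authors' deposited table gives Tbx15 a log2 fold change of 0.65 with an adjusted p of 0.0536, and Zic1 0.84 with 0.0641. It calls 0 of the 10 regulators among 11241 genes.

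Cold replicates 2 and 3, the highest for Zic1, Lhx8 and Tbx15, also had the highest skeletal muscle marker sums. The muscle creatine kinase Ckm was there at 48.2 and 30.3 CPM, and at 0.171 to 0.316 CPM in the other 3 cold and 0 to 13.95 CPM in the control mice. The muscle regulator Myod1 had 0 counts in all 10 libraries. Omitting both libraries, an alternative chosen after seeing the data, left log2 fold changes of 0.44 for Zic1 (adjusted p = 0.552), 0.16 for Lhx8 (adjusted p = 0.789) and 0.43 for Tbx15 (adjusted p = 0.330) in edgeR's test. That fit called 7.84% of the genes tested, with fewer cold libraries. Because the omitted libraries were the highest for Zic1, Lhx8 and Tbx15, lower estimates were bound to follow whatever their muscle RNA. Muscle sums were 7.54, 11.9 and 7.28 CPM in cold replicates 1, 4 and 5. Zic1 there was at 9.43, 12.8 and 24.6 CPM. Control replicate 4, with the highest control muscle sum (80.8 CPM), had the lowest control Zic1 (5.71 CPM) and highest control Tbx15 (4.03 CPM). The part of muscle RNA in these differences was not tested.

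**Figure D4:**
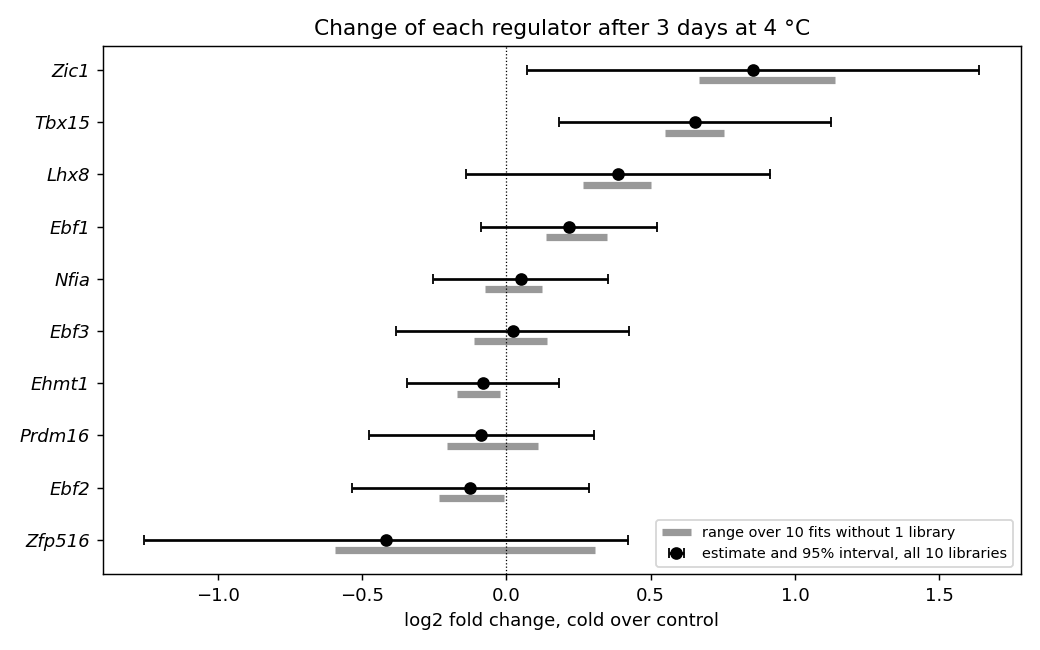
Log2 fold change of cold over control for each regulator, ordered by size. Points and bars are the estimate and its 95% interval from edgeR's quasi-likelihood fit (5 cold and 5 control libraries), and grey bars the range of the estimate over the 10 fits that each left out 1 library. Zic1 at 0.85 and Tbx15 at 0.65 have intervals above 0 before adjustment for the number of genes, and the range of Zfp516 runs from -0.59 to 0.31.

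Deviations from the group means were compared between genes over the 10 libraries, as a description without a test. Among the regulators the pair most alike was Ebf3 and Tbx15 (Pearson r = 0.81, Spearman rho = 0.62), followed by Ebf1 and Zic1 (r = 0.73, rho = 0.65). For both Ebf3 and Tbx15, control replicate 2 (44.8 and 2.74 CPM) and cold replicate 5 (53.6 and 3.73 CPM) were the lowest of their groups. These are the libraries that stood apart on the second principal component. Ebf3 and Nfia ran most opposite (r = -0.69, rho = -0.79). Each regulator was then set against 11146 other genes with a mean log2 CPM of at least 1. The genes named are those with the highest r, so high values over only 10 libraries follow in part from that choice. Ebf1 ran closest to Xpo4, Zmym4 and Apc (r = 0.99, 0.99 and 0.96), and its r with Xpo4 was 0.97 without the 2 libraries farthest from the median. That pair had already been chosen for its high r, and Xpo4 had only 33 to 64 counts per library. Ebf2 ran closest to Cep162 and Dtx4 (r = 0.97 and 0.95), and Ebf3 to Hspa12a, Tlr3 and Manf (r = 0.98, 0.97 and 0.96). No closest gene was shared between any of the 10 regulators, where at most 3 of 11146 genes were named for each. Zfp516 ran closest to Car4, a carbonic anhydrase, with Ctsl and Ndel1 next (r = 0.99, 0.97 and 0.97). Car4 was at 101.2 CPM in control replicate 2 and 36.8 to 50.1 CPM in the other controls, and without the 2 farthest libraries its r fell to 0.86. For Prdm16 they were Cdon, Dnajc24 and Mlh3 (r = 0.96, 0.94 and 0.93), and for Ehmt1 Ahr, Mknk2 and Inppl1 (r = 0.96, 0.94 and 0.93). For Nfia they were Gmnn, Bod1 and Ndst2 (r = 0.97, 0.97 and 0.95), and for Tbx15 Fpgs, Cdc7 and Fcrls (r = 0.97, 0.95 and 0.94). For Zic1 they were Ppm1g, Sugp1 and Orm3 (r = 0.92, 0.91 and 0.90), and for Lhx8 Pld2, Mcm3ap and 1110065P20Rik (r = 0.94, 0.91 and 0.90). The deviations were of log2 CPM scaled for library size, and a library that stands apart enters the r of every gene. No test was made of these values.

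Paralogs of the regulators were mostly scarce. Of 42 family members listed, 14 had enough reads to be tested, of which 1 was called higher in cold mice and 0 lower (7.14% called, where 19.3% of all genes tested were). Prdm10, a relative of Prdm16, rose to 3.45 ± 1.02 CPM in cold mice, against 1.65 ± 0.597 CPM in control mice (log2 fold change 1.07, SE 0.31, adjusted p = 0.0294 in edgeR's test). Omitting a single library ended that call for 5 of the 10 libraries (highest adjusted p 0.075). Mecom, the closest relative of Prdm16, had 0 to 3 counts in each library.

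Of 41 tested genes for proteins that work with or oppose these regulators, 2 rose and 5 fell, where 19.3% of all genes were called. The median log2 fold change was -0.08. Cebpa, a C/EBP factor of fat cell differentiation, fell to 531 ± 55.0 CPM in cold mice, against 991 ± 279 CPM in control mice (log2 fold change -0.90, SE 0.17, adjusted p = 0.00286 in edgeR's test). The histone deacetylase genes Hdac1 and Hdac3 fell by 0.51 and 0.34 on the log2 scale (adjusted p = 0.00988 and 0.0314), while the third family member listed, Hdac2, had a log2 fold change of 0.24 (adjusted p = 0.0841). For Hdac3, omitting a single library ended the call for 7 of the 10 libraries (highest adjusted p 0.0804). Smarca4, the ATPase of a chromatin remodelling complex, and the nuclear receptor coactivator Ncoa1 rose by 0.39 and 0.50 (adjusted p = 0.0098 and 0.0122). Without single libraries 2 to 5 members of this list fell. Pparg, the central fat cell receptor, and Cebpb, a PRDM16 partner, had log2 fold changes of -0.06 and 0.29 (adjusted p = 0.758 and 0.189), and Ctbp1 and Kdm1a, corepressors, of 0.03 and -0.01 (adjusted p = 0.798 and 0.944). These 4 were named after their values were seen.

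Among genes widely used as brown-selective markers or targets of PRDM16 and EBF2, 13 rose and 2 fell of 27 tested, with a median log2 fold change of 0.41. Over all genes tested, 10.2% rose and 9.16% fell, with a median of -0.02. The list was assembled with earlier results of these data known. Ucp1 rose by 1.02, Elovl3, a fatty acid elongase, by 2.71 and Bmp8b, a secreted factor, by 4.78. Ntrk3, a neurotrophin receptor, fell to 23.4 ± 10.1 CPM in cold mice, against 61.5 ± 6.12 CPM in control mice (log2 fold change -1.41, SE 0.21, adjusted p = 0.000756). Cox8b, a cytochrome c oxidase subunit, fell by 0.34 (adjusted p = 0.0214), and omitting a single library ended that call for 3 of the 10 libraries (highest adjusted p 0.0616). Cidea, a lipid droplet protein, had a log2 fold change of 0.07 (adjusted p = 0.633), named after its values were seen. The 10 regulators spanned -0.42 to 0.85 beside these, and whether the lists differ was not tested.

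**Figure D5:**
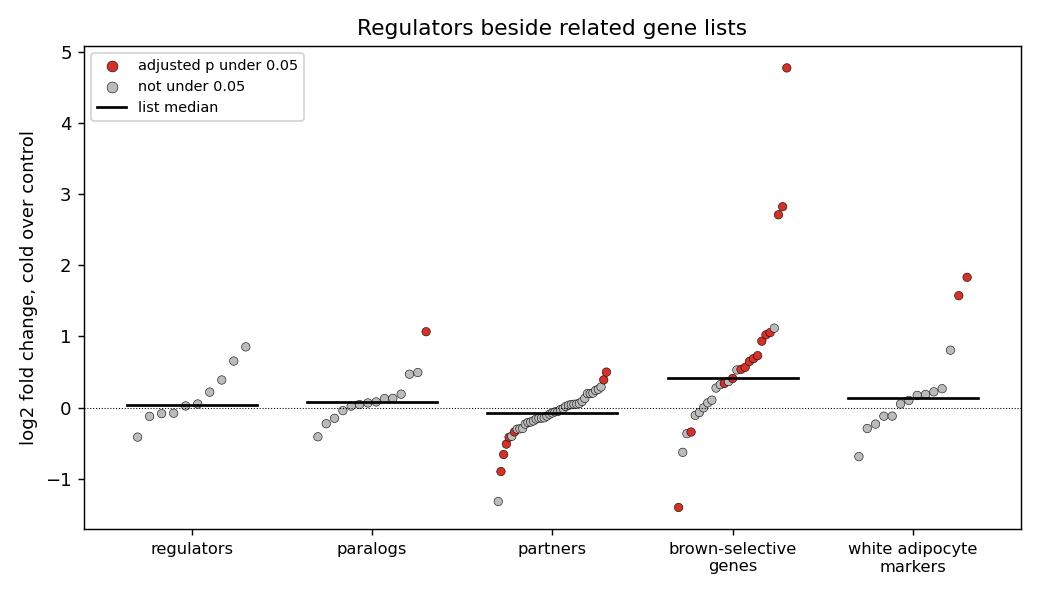
Log2 fold change of cold over control for each tested gene of 5 lists, ordered within a list: the 10 regulators, 14 paralogs, 41 partners, 27 brown-selective genes and 14 white adipocyte markers. Zfp423, Tle3 and Nrip1 are in both the partner and the white adipocyte list. Red points had an adjusted p under 0.05, and black lines are list medians. No regulator is red, where 15 brown-selective genes are.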

How the data were processed

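Members and lists were chosen with earlier results of these data known. STAR, edgeR and mm9 are named in the submitters' processing notes, without versions. The deposited count table holds raw counts per gene model for each of 10 libraries, with the bases counted, per the file headers; no strand setting is stated. Control columns carry no group word and were matched by replicate number. Cold samples carry a treatment tag that reads room temperature beside 4 °C, but titles, source names and protocol place them in the cold. A second deposited table gives the authors' log2 fold changes, log2 CPM, p-values and adjusted p-values.

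Counts were fitted with edgeR 4.0.16 in R 4.3.3 (TMM, filterByExpr, quasi-likelihood F test, no covariate, two-sided, Benjamini-Hochberg over all genes tested), checked on simulated data. The SE is the log2 fold change over the square root of F, and intervals are at 95%. Alternatives were other scalings and filters, DESeq2 1.42.0, limma-voom (limma 3.58.1), a replicate block and omitted libraries. Library totals were 4446163 to 6923932 counts, so genes with few counts carry large counting error. Genes named from the lists are, in each direction, the 3 called with the smallest p, and for likeness the 3 with the highest r, of which 1 is not reported here. Starts count from 0 in all 20295 rows and were raised by 1. Replicates differed beyond sampling noise (chi-square per degree of freedom 3.2 to 36.1).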

Additional observations from a re-analysis of the deposited data

Results flagged for a closer look

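Zfp516 in control replicate 2 was at 79.07 CPM, while the other 4 controls lay at 14.67 to 20.67 CPM and the 5 cold libraries at 19.6 to 25.45 CPM. The gap to the nearest control took up most of the range of the group. Chance flags about 1 in 20 groups of 5, and 20 groups (10 genes in 2 conditions) were looked at, with 1 flag. The log2 fold change of Zfp516 was -0.42 with this library and 0.31 without it.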

How the results depend on the processing

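Over RLE, upper quartile and no scaling, library sizes without the 20 most abundant genes, both filters, DESeq2, limma-voom and the replicate block, every regulator kept its sign and 0 of 10 were called. The labels do not say that equal replicate numbers pair the mice. Correlations of deviations between cold and control libraries of equal number were -0.255 to 0.192, with 2 over 0.1, which cannot settle pairing. With the replicate block, Tbx15 was at 0.63 (adjusted p = 0.129), Zic1 at 0.85 (adjusted p = 0.126) and Zfp516 at -0.14, 0 regulators were called, and 981 genes rose and 808 fell, where the unblocked fit had 1142 and 1029. Leaving out single libraries gave 0 to 2 regulators higher, with ranges of -0.20 to 0.11 for Prdm16, 0.14 to 0.35 for Ebf1, -0.23 to -0.0066 for Ebf2, -0.11 to 0.14 for Ebf3, 0.67 to 1.14 for Zic1, 0.27 to 0.50 for Lhx8, -0.59 to 0.31 for Zfp516, -0.17 to -0.023 for Ehmt1, -0.074 to 0.12 for Nfia and 0.55 to 0.75 for Tbx15. Ebf1 and Zic1 were called without control replicate 1, where 20.3% of genes were, and Tbx15 without cold replicate 5, where 21.4% were. Omitting control replicate 2 and cold replicate 5 together called 1 regulator, Tbx15 at 0.68, put Zfp516 at 0.36 and Ebf3 at -0.020, and called 25.3% of genes. Omitting cold replicates 2 and 3 together, chosen after seeing the data, put Ebf3 at -0.069, and 503 genes rose and 384 fell, with fewer libraries. Other causes were not tested. Of the lists, paralogs had 0 to 1 higher and 0 to 1 lower, partners 0 to 3 and 1 to 7, brown-selective genes 9 to 16 and 1 to 4, and white adipocyte markers 1 to 3 and 0 to 1 over all alternatives.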

Other observations

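Of 14 tested genes listed as white adipocyte markers, 2 rose and 0 fell in cold mice, where 19.3% of all genes tested were called. That list also holds the regulators Zfp423, Tle3 and Nrip1, which are counted among the partners as well. Gpr64, an adhesion G protein-coupled receptor, rose to 26.3 ± 2.57 CPM in cold mice, against 8.87 ± 1.51 CPM in control mice (log2 fold change 1.57, SE 0.14, adjusted p = 1.36e-05 in edgeR's quasi-likelihood test). Nnat, neuronatin, rose to 13.0 ± 6.13 CPM in cold mice, against 3.59 ± 2.0 CPM in control mice (log2 fold change 1.83, SE 0.43, adjusted p = 0.0102). Omitting cold replicates 2 and 3 together left Nnat at 1.39 (adjusted p = 0.108). Zfp423 and Tle3, regulators that oppose the brown programme, had log2 fold changes of -0.23 (adjusted p = 0.37) and -0.29 (adjusted p = 0.107), and were named after their values were seen.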
